A study of Mus musculus with 4 samples.

Results

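The 8 genes described here encode chaperones, most of which are made in larger amounts when a cell is stressed. They are *Hspa1a*, *Hspa1b*, *Dnajb1*, *Hsph1*, *Hspb1*, *Hsp90aa1*, *Hspa5* and *Hspa8*. They were chosen by gene symbol from the 32285 genes of the count tables, and transcripts of all 8 were counted in each of the 4 scRNA-Seq libraries. Each library held cells of the left lung lobe pooled from 3 wild-type male C57BL/6 mice on a restricted diet, digested with Liberase and DNase for 30 minutes, frozen and thawed. Young mice were aged 2 to 3 months, and aged mice 22 months. For each age, a library came from naive, nonventilated mice and another from mice ventilated for 3 hours at a tidal volume of 20 mL/kg. The paper states that this volume had an upper limit, so that heavier mice received less per body weight. It also states that aged mice were in general heavier, so the volume per body weight can differ between the ages. The part of this in a difference between the ages was not tested. Ventilation came with ketamine and medetomidine anesthesia, buprenorphine and oxygen, and their parts in a difference between ventilated and nonventilated cells cannot be told apart. There was 1 library per group, so no test was run and no value has a replicate error. Where 4 values follow each other, they are those of nonventilated and ventilated young, then of nonventilated and ventilated aged cells.

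Heat shock proteins keep other proteins folded, refold damaged ones or pass them on for degradation. In the cytosol, HSP70 proteins bind exposed stretches of unfolded protein, J-domain partners such as the product of *Dnajb1* deliver the clients, and nucleotide exchange factors such as the product of *Hsph1* release them. *Hspa1a* and *Hspa1b* encode the inducible cytosolic HSP70, with nearly identical proteins, and are low in most resting cells. *Hspa8* encodes the constitutive member of that family, and *Hsp90aa1* the inducible form of cytosolic HSP90. *Hspb1* encodes the small heat shock protein HSP27, which is abundant in smooth muscle. These cytosolic genes are known targets of heat shock factor 1 (HSF1), although *Hspa8* depends on it less. *Hspa5* encodes BiP, the HSP70 of the endoplasmic reticulum, and belongs to the unfolded protein response instead. Enzymatic digestion of a tissue is itself known to induce heat shock and immediate early genes, and the nonventilated libraries went through the same digestion.

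On GRCm38, *Hspa1a* (ENSMUSG00000091971) lies at chr17:34969190-34972156 and *Hspa1b* (ENSMUSG00000090877) at chr17:34956436-34959238, both on the minus strand with 1 exon each and 9951 bases apart. Of the 1894 30-base words of the *Hspa1a* coding part, 88.8% were also in *Hspa1b*. The last 300 bases of the transcripts, where a 3′ assay reads most, shared 0 of 271 such words. The other genes are *Dnajb1* (ENSMUSG00000005483) at chr8:83608193-83612653, *Hsph1* (ENSMUSG00000029657) at chr5:149614287-149636376, *Hspb1* (ENSMUSG00000004951) at chr5:135887919-135889563, *Hsp90aa1* (ENSMUSG00000021270) at chr12:110690605-110702728, *Hspa5* (ENSMUSG00000026864) at chr2:34771970-34777547 and *Hspa8* (ENSMUSG00000015656) at chr9:40800984-40810087.

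The promoters show which of these genes carry letters of the heat shock element, the sequence HSF1 binds, and which carry those of the ER stress element. RefSeq promoter entries (GRCm38.p6, from 250 bases before the start) were found for 6 of the 8 genes and not for *Hspa8* and *Hsp90aa1*. The sequences below are the parts of these windows that hold a match, written 5′ to 3′ on the strand of the gene, with the matched letters in capitals. *Hspa1a* (chr17:34972233-34972280, minus strand), *Hspa1b* (chr17:34959315-34959362, minus strand) and *Hspb1* (chr5:135887782-135887849, plus strand) hold GAANNTTC. *Hsph1* (chr5:149636342-149636389, minus strand) holds TTCNNGAA. *Hspa5* (chr2:34772005-34772063, plus strand) holds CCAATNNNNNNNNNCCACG, the ER stress element. The start is that of the promoter entry and can differ from the gene positions above, which came from another annotation. The stretches of *Hspa5* and *Hsph1* thus overlap the gene positions given.
Hspa1a: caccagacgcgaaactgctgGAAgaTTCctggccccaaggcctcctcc
Hspa1b: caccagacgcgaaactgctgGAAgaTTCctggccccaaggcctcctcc
Hspb1: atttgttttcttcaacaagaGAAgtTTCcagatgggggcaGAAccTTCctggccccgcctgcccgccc
Hsph1: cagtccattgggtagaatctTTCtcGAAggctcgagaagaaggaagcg
Hspa5: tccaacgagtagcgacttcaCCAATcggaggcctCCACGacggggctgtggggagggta

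The *Hspa1a* and *Hspa1b* matches lie 104 to 97 bases before the start, and the 250 bases before the start are 98.8% identical between the pair. Over all 32851 promoter windows and both strands, GAANNTTC was in 6.69%, TTCNNGAA in 7.17% and the ER stress element in 0.113%. The longer form GAANNTTCNNGAA, which holds both shorter ones, was in 0.466% of windows and in none of these 6 genes. *Dnajb1* had no match to the 4 motifs in its 2 windows. A match is a description of the letters and not a site of binding.

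The 4 libraries held 15428 barcodes, of which 9514 were kept as cells (1960 to 2750 per library) with 17736722 to 22711057 unique molecular identifiers (UMIs, counted transcripts) per library. The median was 7236.5 to 8370.5 UMIs per cell and 3.13% to 3.46% of UMIs were mitochondrial. Libraries shared 0 to 7 barcodes pairwise. Cells were clustered without the heat shock and folding genes, so that a cluster could not be defined by them, and 12 marker-named classes with at least 20 cells in each library were compared, 8297 cells in all. Levels are summed UMIs scaled to 1000000 UMIs of the same cells (CPM), and log2 ratios have 1 UMI added to each sum. Square brackets hold exact 95% intervals, which cover counting error only and neither the differences between mice nor those between pools. They take UMIs as independent, so the uneven spread of UMIs over cells is not covered either. Where a few cells hold most UMIs of a gene, the intervals are too narrow. Here "higher" and "lower" without a fold mean that such an interval leaves out 1. With this depth most genes met that: over all retained cells, 41.9% of genes past a filter on low values were higher and 44.5% lower with ventilation in the young, and 34.3% and 48.5% in the aged.

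Over all retained cells, ventilation went with a mixed pattern among the 8 genes. *Hspb1*, *Hsp90aa1*, *Hspa5*, *Hspa8* and *Hsph1* were higher in the ventilated library at both ages, *Hspa1a* and *Dnajb1* lower at both ages, and *Hspa1b* lower in the young. In the young this made 5 of 8 higher and 3 lower, and in the aged 5 higher and 2 lower, beside the shares of all genes above. In the young, *Hspa5* was at least 2-fold higher, and *Hspa1a* and *Hspa1b* at least 2-fold lower. Of the 4148 genes that averaged 50 CPM or more and had 20 UMIs or more in a library, 6.51% were at least 2-fold higher and 5.83% at least 2-fold lower in that comparison. In the aged, *Hspb1* was at least 2-fold higher (4.23% of 4138 genes were) and 0 of the 8 were at least 2-fold lower (3.00% were). The median log2 ratio of the 8 genes was 0.52 in the young and 0.44 in the aged, whereas that of all genes past the filter was -0.01 and -0.07. The filter was passed by 7 of the 8 genes in the young, all but *Hsph1*, and by 6 in the aged, all but *Hsph1* and *Hspa1b*. Part of this pattern came from a single cell class: without the smooth muscle or pericyte-like cells, a class left out after its values had been seen, 3 of the 8 genes were at least 2-fold higher in the young (*Hspb1*, *Hsp90aa1* and *Hspa5*, with 6.79% of genes) and 0 at least 2-fold lower (6.18%). In the aged, 1 was then at least 2-fold higher (*Hspb1*, with 4.37% of genes) and 0 lower (3.29%).

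**Figure D1:**
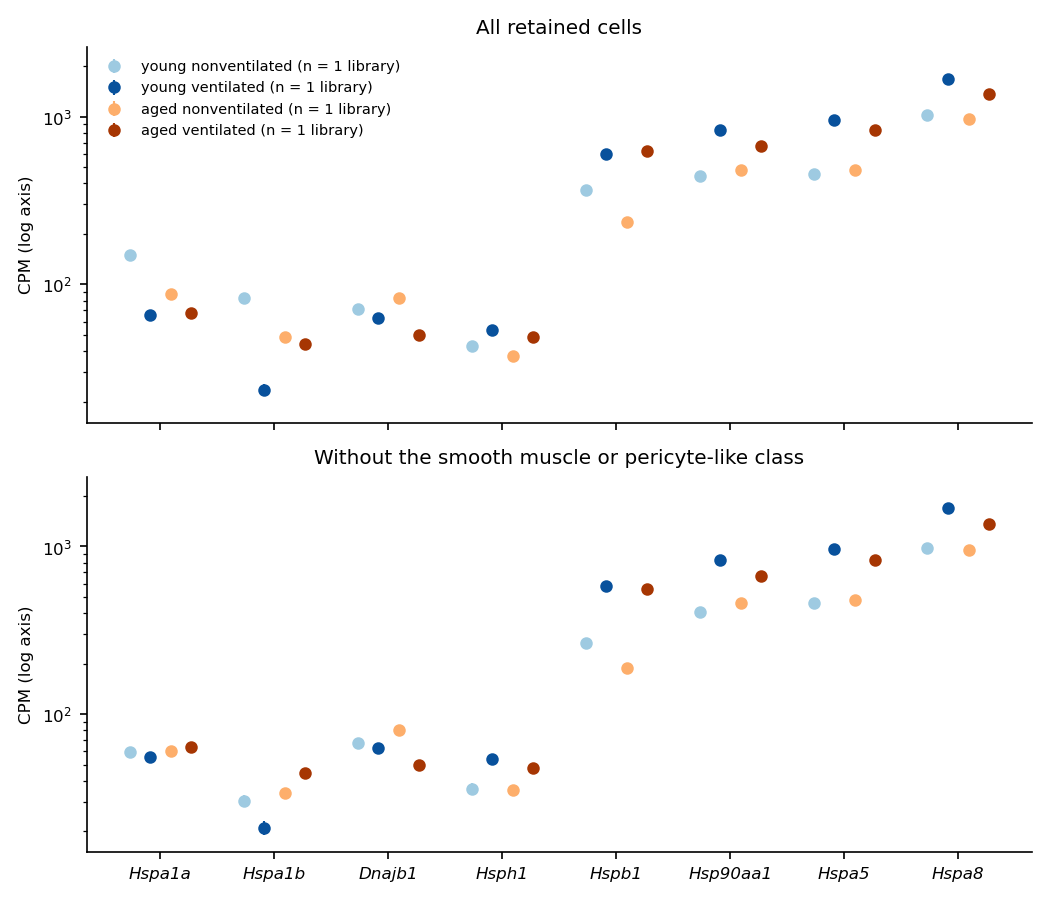
Level of each heat shock gene in CPM on a log axis in the 4 libraries (1 point per library, bars are exact 95% counting intervals, mostly smaller than the point), over all retained cells (top) and without the smooth muscle or pericyte-like class (bottom). In the top panel *Hspa1a* and *Hspa1b* are highest in the young nonventilated library, at 149.6 and 83.1 CPM, and in the bottom panel *Hspa1a* lies between 55.6 and 63.9 CPM in the 4 libraries.

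*Hspa1a*, the inducible HSP70, was counted 3260, 1485, 1907 and 1191 times. This gave 149.6, 65.4, 87.5 and 67.1 CPM over all retained cells. The young nonventilated library stood above the other 3, which lay closer together. In the young, the level was 2.29-fold lower [2.15, 2.43] after ventilation, and in the aged 1.30-fold lower [1.21, 1.40]. Its neighbor *Hspa1b* was at 83.1, 23.5, 48.4 and 44.1 CPM, 3.54-fold lower [3.21, 3.90] after ventilation in the young and 1.10-fold lower [0.998, 1.20] in the aged, where the interval holds 1. Without the smooth muscle or pericyte-like class, *Hspa1a* was at 59.8, 55.6, 60.3 and 63.9 CPM and *Hspa1b* at 30.3, 21.0, 33.9 and 44.5 CPM. In these sums the young nonventilated library was thus no longer the highest. The sums join classes that differed. In aerocyte-like cells, *Hspa1a* was highest in the young nonventilated library (114, 72.1, 58.9 and 75.2 CPM). In monocyte-like cells, it was highest in the aged nonventilated one (17.5, 30.5, 60.7 and 16.8 CPM). The aged ventilated sum, 1083 *Hspa1a* UMIs, includes single cells with 168, 104 and 94.

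The smooth muscle or pericyte-like class held 179, 162, 138 and 105 cells. These cells held 62.6% of all *Hspa1a* UMIs of the young nonventilated library, against 19.1% in the ventilated young, and 34.9% and 9.07% in the nonventilated and ventilated aged. Within the class, *Hspa1a* was at 1416, 259, 554 and 137 CPM. It was 5.48-fold lower [4.83, 6.22] with ventilation in the young and 4.04-fold lower [3.29, 5.0] in the aged. *Hspa1b* followed the same order at 829, 73.8, 297 and 35.5 CPM, 11.2-fold lower [8.97, 14.3] in the young and 8.37-fold lower [5.69, 12.8] in the aged. In this class, 3 of the 8 genes (*Hspa1a*, *Hspa1b* and *Hsph1*) were at least 2-fold lower in the young and 0 at least 2-fold higher, where 4.53% and 4.66% of the class's genes were. In the aged, *Hspa1a* and *Hspa1b* were at least 2-fold lower and 0 of the 8 at least 2-fold higher, against 3.74% and 2.24% of genes.

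A few cells held much of these transcripts. In the young nonventilated library, 19 of 2430 cells held 0.5 of all *Hspa1a* and *Hspa1b* UMIs, and the highest cell alone had 371. The same share took 113 young ventilated cells, but 65 nonventilated and 13 ventilated aged cells. For *Hspa8*, by contrast, it took 277 to 398 cells. With a limit of 20 summed *Hspa1a* and *Hspa1b* UMIs, set after the data were seen, 73 cells were high, namely 33, 7, 25 and 8 in the 4 libraries. The smooth muscle or pericyte-like class held 43 of them, namely 30, 1, 12 and 0 cells. The 30 young nonventilated cells held 2945 of the 3237 *Hspa1a* and *Hspa1b* UMIs of their class, and the other 149 cells of the class held 292. At a finer cluster resolution that separated smooth muscle-like from pericyte-like cells, all 43 were smooth muscle-like.

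**Figure D2:**
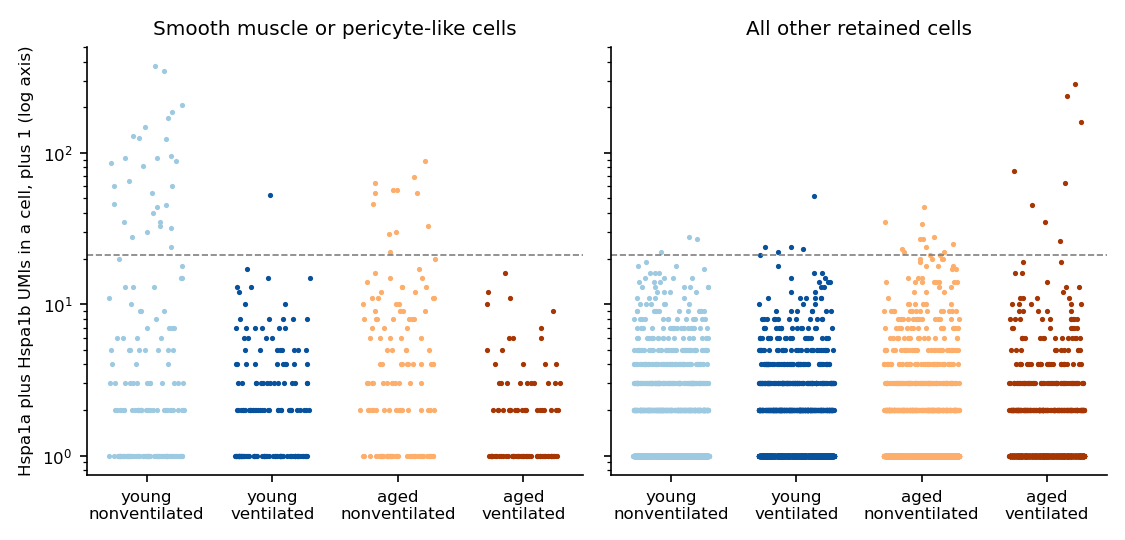
*Hspa1a* plus *Hspa1b* UMIs in each cell, plus 1, on a log axis, by library (1 point per cell, spread sideways at random), for the smooth muscle or pericyte-like class (left) and all other retained cells (right), with a dashed line at 20 UMIs. On the left, 30 young nonventilated and 12 aged nonventilated cells reach the line, against 1 young ventilated and 0 aged ventilated cells, and on the right a few aged ventilated cells reach over 100 UMIs.

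The high smooth muscle-like cells were also rich in most of the other cytosolic chaperones. Against the other cells of their class in the young nonventilated library, *Hspb1* was 23.4-fold higher [20.4, 27.0], *Hsph1* 7.05-fold [5.10, 9.90], *Hsp90aa1* 5.49-fold [4.88, 6.19], *Dnajb1* 4.97-fold [3.61, 6.92] and *Hspa8* 4.78-fold [4.37, 5.23]. *Hspa5*, the chaperone of the endoplasmic reticulum, was the exception, at 0.829 times the level of the other cells [0.678, 1.01]. The aged nonventilated library had the same split, with *Hspb1* 7.35-fold higher [6.55, 8.25] in the 12 high cells and *Hspa5* at 0.700 times the level of the others [0.534, 0.905]. Since the cells were chosen by *Hspa1a* and *Hspa1b*, no value is given for that pair. The summed immediate early genes were 1.39-fold and 1.38-fold higher in the high cells at the 2 ages, much less than the chaperones. These cells differed in type as well, so the folds above also hold a difference in cell type. The class had 149 other young nonventilated cells, while 56 other cells of that library were smooth muscle-like at the finer resolution. Summed smooth muscle markers were 4.25-fold and 2.42-fold higher in the high cells than in the others of the class, and pericyte markers were at 0.169 and 0.310 times the level. *Actc1*, the cardiac form of actin, was 10.9-fold and 9.05-fold higher in the high cells. They had more UMIs, with a median of 14392 against 6383 in the young nonventilated library, and a median of 5.08% against 3.23% mitochondrial UMIs.

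*Actc1* differed between the libraries in the same direction as *Hspa1a*. Among cells that were smooth muscle-like at the finer resolution (86, 50, 58 and 40 cells), *Hspa1a* was at 2169, 259.6, 802 and 175 CPM, and *Actc1* at 2327, 382, 1668 and 121 CPM. At least 1 *Actc1* UMI was seen in 29 of the 30 and 10 of the 12 high nonventilated cells, but in 22 of 56 and 20 of 46 of the other nonventilated smooth muscle-like cells. Among ventilated smooth muscle-like cells with under 20 summed *Hspa1a* and *Hspa1b* UMIs, it was seen in 18 of 49 young and 12 of 40 aged cells. *Acta2*, the actin of all smooth muscle, was at 10525, 7181, 10389 and 7245 CPM, a smaller range. The 8 smooth muscle markers summed to 28007, 20072, 27304 and 21158 CPM. *Des*, another of these markers, went the other way at both ages, at 1188.6, 1544.7, 1548 and 2038.5 CPM. Whether the ventilated libraries held fewer cells rich in *Hspa1a* and *Actc1* or less of these transcripts per cell cannot be told apart in these data. Pericyte-like cells (75, 90, 68 and 52 cells) did not share the pattern in the young, with *Hspa1a* at 125, 235, 227 and 99.7 CPM, 1.87-fold higher [1.38, 2.56] with ventilation. Hemoglobin transcripts, which mark red blood cells, were at 2.77, 2253, 5.0 and 0 CPM in the whole class, and their part in the result was not tested.

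In the young nonventilated library, *Hspa1a* was lower outside this class. Its order there ran from interstitial macrophage or dendritic-like cells (132 CPM), aerocyte-like capillary cells (114 CPM) and fibroblast-like cells (101 CPM) down to general capillary or large-vessel endothelial-like cells (general capillary-like for short, 32.3 CPM), alveolar type II-like cells (22.7 CPM), monocyte-like cells (17.5 CPM), alveolar macrophage-like cells (14.7 CPM), lymphatic endothelial-like cells (7.65 CPM), neutrophil-like cells (3.63 CPM), B-like cells (2.52 CPM) and T, NK or innate lymphoid-like cells (0 of 320306 UMIs, which allows up to 3 UMIs). Counting intervals of neighbors in this order overlapped, except between fibroblast-like and general capillary-like cells. In fibroblast-like cells, *Hspa1a* was at 101, 96.6, 133 and 80.7 CPM in the 4 libraries. General capillary-like cells had 32.3, 33.0, 38.4 and 27.0 CPM, a narrow range. The interstitial macrophage or dendritic-like class had 132, 21.6, 74.9 and 61.9 CPM and was 6.09-fold lower [3.88, 10.0] with ventilation in the young. In the same class the 14 summed immediate early genes were at 15777, 6397, 10180 and 9247 CPM, lowest in the same library, and their part in the result was not tested. In the young, *Hspa1a* was lower with ventilation in 3 of the 12 classes and higher in 3. By the same measure, 14.1% to 44.9% of a class's genes were lower and 15.1% to 43.6% higher. The higher classes were neutrophil-like (5.96-fold [1.48, 52.1], 24 ventilated UMIs in 13 cells), alveolar macrophage-like (1.89-fold [1.03, 3.55]) and monocyte-like cells (1.74-fold [1.22, 2.51]).

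The aged ventilated library had its highest *Hspa1a* in single cells of other types. In the aged ventilated library, 2 neutrophil-like cells held 168 and 94 *Hspa1a* UMIs of the 283 in that class of 263 cells, and 114 and 144 of its 287 *Hspa1b* UMIs. The class thus read 200.04 CPM of *Hspa1a*, against 3.63 and 21.6 CPM in the young libraries and 8.21 CPM in the aged nonventilated one, from 2, 24 and 2 UMIs. In alveolar type II-like cells, 1 aged ventilated cell held 104 of the 153 *Hspa1a* UMIs, and the levels were 22.7, 52.3, 30.9 and 565 CPM. This class had few UMIs per cell (medians of 1236 to 1645), and with the stricter type II cluster of the finer resolution the UMIs were 6, 3, 13 and 5 in 14, 17, 18 and 4 cells. The class itself held 73, 133, 86 and 71 cells, so most of it was not named type II there. Its levels, for all genes given here and below, may thus include other cells. T, NK or innate lymphoid-like cells had 0, 0, 10 and 62 *Hspa1a* UMIs, with 39 and 21 of the 62 in 2 cells. In the aged, *Hspa1a* was lower with ventilation in 7 of the 12 classes, at least 2-fold in 5 of them, and higher in 3. By the same measure, 13.5% to 47.4% of a class's genes were lower and 12.5% to 33.2% higher. The 5 classes were smooth muscle or pericyte-like, monocyte-like, alveolar macrophage-like, lymphatic endothelial-like and B-like cells. Of their genes past the filter, 3.74%, 10.1%, 2.39%, 8.3% and 3.31% were at least 2-fold lower. Of these classes, *Hspa1a* itself passed that filter only in the smooth muscle or pericyte-like one. The shares of the others are thus of genes with higher levels. Over all retained aged cells, 13.6% of genes were at least 2-fold lower with no filter, against 3.00% past it. Aged nonventilated and ventilated UMIs were few in the alveolar macrophage-like (22 and 2), lymphatic endothelial-like (7 and 0) and B-like cells (11 and 0). The 3 higher classes, those above, were each at least 2-fold higher: neutrophil-like (24.4-fold [6.69, 202], where 7.42% of genes were at least 2-fold higher), alveolar type II-like (18.2-fold [10.5, 34.2], with 10.6% of genes) and T, NK or innate lymphoid-like (9.40-fold [4.78, 20.6], with 3.49% of genes). Leaving out the 1% of cells of each library highest in the 8 genes left 1 such class of the 3, the alveolar type II-like cells, and at the finer cluster resolution 2 classes were at least 2-fold higher, without that one. These cells were not uniform in the rest of the heat shock set. The richest neutrophil-like cell had 44 *Hsph1* UMIs and the second had 0, and both had 0 *Hspb1* and 0 *Dnajb1* UMIs.

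The cochaperones went in opposite directions. *Dnajb1*, the J-domain partner of inducible HSP70, was at 71.3, 63.4, 82.6 and 50.2 CPM over all retained cells, 1.12-fold lower [1.05, 1.21] with ventilation in the young and 1.65-fold lower [1.52, 1.79] in the aged. It stayed lower in the aged without the smooth muscle or pericyte-like class, at 67.3, 63.3, 80.4 and 49.6 CPM. Fibroblast-like cells had 129, 102, 175 and 81.1 CPM, a 2.16-fold lower level [1.86, 2.51] with ventilation in the aged, and general capillary-like cells had 53.4, 51.5, 72.9 and 43.1 CPM, 1.69-fold lower [1.41, 2.03]. Of the 12 classes, *Dnajb1* was lower with ventilation in 3 and higher in 1 in the young, and lower in 5 and higher in 1 in the aged. By the same measure, 15.1% to 43.6% of a class's genes were higher and 14.1% to 44.9% lower in the young, and 12.5% to 33.2% and 13.5% to 47.4% in the aged. *Hsph1*, which releases clients from HSP70, was at 43.1, 53.5, 37.2 and 48.4 CPM, 1.24-fold [1.14, 1.35] and 1.30-fold higher [1.18, 1.44] with ventilation. Fibroblast-like cells had 45.0, 82.6, 39.1 and 53.6 CPM of *Hsph1*. It was higher in 4 and lower in 1 of the 12 classes in the young, the lower one being the smooth muscle or pericyte-like class (144, 37.3, 67.4 and 60.9 CPM), and higher in 5 and lower in 0 in the aged.

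*Hspb1*, the small heat shock protein gene, was counted 7914, 13667, 5112 and 11018 times. Its levels of 363, 602, 235 and 621 CPM put both ventilated libraries above both nonventilated ones. The ratio was 1.66 [1.61, 1.70] in the young and 2.65 [2.56, 2.74] in the aged. Structural cells carried most of it. Fibroblast-like cells alone held 39.4% to 58.1% of a library's *Hspb1* UMIs, with levels of 638, 1364, 574 and 1679 CPM, 2.14-fold [2.05, 2.23] and 2.93-fold higher [2.78, 3.08] with ventilation. Aerocyte-like cells had 683, 1150.4, 559.8 and 2355 CPM, 1.68-fold higher [1.55, 1.83] in the young and 4.21-fold higher [3.81, 4.65] in the aged. General capillary-like cells were lower, at 106, 246, 98.8 and 279 CPM (2.31-fold [2.10, 2.56] and 2.83-fold [2.54, 3.15]), and alveolar type II-like cells were at 123, 381, 164 and 605 CPM. In leukocyte classes *Hspb1* was near the limit of counting. Monocyte-like cells had 11, 43, 15 and 29 UMIs, and B-like cells 1, 3, 11 and 6 UMIs. The T, NK or innate lymphoid-like class had 52 UMIs in the aged ventilated library and 2 to 7 in the others.

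The smooth muscle or pericyte-like class was the only one of the 12 in which the *Hspb1* ratios lay on opposite sides of 1 with intervals that left out 1 at both ages. The levels were 1761, 988, 1013 and 1984 CPM. It was 1.78-fold lower [1.66, 1.92] with ventilation in the young and 1.96-fold higher [1.82, 2.11] in the aged. This rested on few cells. The 1% of cells highest in the 8 genes included 19, 0, 11 and 3 cells of the class, and without them *Hspb1* was at 427, 988, 477 and 1557 CPM, higher with ventilation at both ages (log2 ratios of 1.21 and 1.70). These cells were chosen by genes that include *Hspb1*, and most were nonventilated. Leaving them out thus lowers the nonventilated levels by choice, and the ratios without them are no independent result. Pericyte-like cells had little *Hspb1*, from 43.1 to 81.3 CPM, and smooth muscle-like cells had 2757, 2209, 1729.8 and 3936 CPM.

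**Figure D3:**
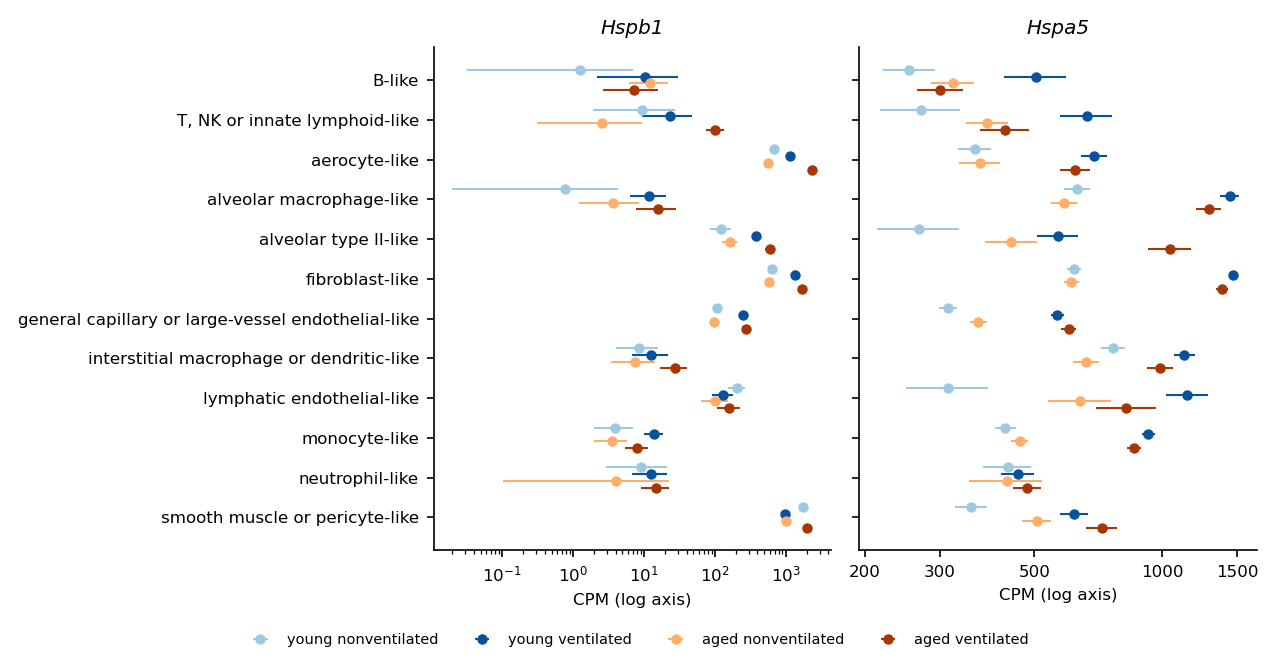
*Hspb1* (left) and *Hspa5* (right) in CPM on log axes in 12 cell classes, with 1 point per library and exact 95% counting intervals as bars. *Hspb1* exceeds 500 CPM in fibroblast-like, aerocyte-like and smooth muscle or pericyte-like cells of every library, and *Hspa5* lies between 255 and 1463 CPM in these classes with the ventilated points to the right in most of them.

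*Hsp90aa1* and *Hspa8*, the abundant cytosolic chaperones, were higher with ventilation across most cell classes. *Hsp90aa1* was at 442, 829, 478 and 671 CPM over all retained cells, 1.88-fold [1.83, 1.92] and 1.40-fold higher [1.37, 1.44] in young and aged. *Hspa8* was at 1018, 1681, 965 and 1357 CPM, 1.65-fold [1.62, 1.68] and 1.41-fold higher [1.38, 1.43]. *Hsp90aa1* was higher in 10 and lower in 1 of the 12 classes in the young and in 9 and 1 in the aged, and *Hspa8* in 10 and 1 and in 10 and 0. By the same measure, 15.1% to 43.6% of a class's genes were higher and 14.1% to 44.9% lower in the young. In the aged these shares were 12.5% to 33.2% and 13.5% to 47.4%. For *Hsp90aa1* and *Hspa8*, the lower class was the smooth muscle or pericyte-like one in each case. There, *Hsp90aa1* was at 941, 719, 788 and 696 CPM and *Hspa8* at 1568, 1205, 1127 and 1187 CPM. In fibroblast-like cells, *Hsp90aa1* was at 510.4, 1098, 596 and 879 CPM and *Hspa8* at 832, 1859, 929.8 and 1528 CPM. The response of *Hsp90aa1* in these cells was 2.15-fold [2.05, 2.25] in the young and 1.48-fold [1.39, 1.56] in the aged. Alveolar type II-like cells had the highest *Hsp90aa1* of the 12 classes in the ventilated libraries, at 1761 and 3576 CPM, against 715 and 1180.3 CPM in the nonventilated ones. Of the 71 aged ventilated cells of this class, which had a median of 1387 UMIs, 1 cell held 268 *Hsp90aa1* UMIs and another 32. At the finer resolution few cells were type II-like, so these levels may not be those of type II cells. In neutrophil-like cells *Hspa8* was the lowest of the 12 classes, at 326, 464, 361 and 457 CPM.

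*Hspa5*, the endoplasmic reticulum chaperone BiP, was counted 9911, 21572, 10473 and 14715 times. Its levels of 455, 949.9, 481 and 829.6 CPM were close between the ages without ventilation, and the ratio with ventilation was 2.09 [2.04, 2.14] in the young and 1.73 [1.68, 1.77] in the aged. It was higher in 11 of the 12 classes and lower in 0 in the young, and higher in 9 and lower in 0 in the aged. By the same measure, 15.1% to 43.6% of a class's genes were higher in the young and 12.5% to 33.2% in the aged. The shares of lower genes were 14.1% to 44.9% and 13.5% to 47.4%. Fibroblast-like cells (620.2, 1463, 611 and 1380.5 CPM) and alveolar macrophage-like cells (630.0, 1439, 587 and 1285 CPM) reached the highest levels with ventilation. The ratios were 2.36 [2.26, 2.46] and 2.26 [2.15, 2.38] in fibroblast-like cells, and 2.28 [2.10, 2.49] and 2.19 [1.99, 2.41] in alveolar macrophage-like cells. Lymphatic endothelial-like cells had 314, 1145, 641 and 823 CPM, 3.65-fold higher [2.85, 4.72] in the young. Smooth muscle or pericyte-like cells had 356, 619, 506 and 720.4 CPM, so that *Hspa5* was the 1 gene of the 8 that was higher there in the young. Neutrophil-like cells stood apart with 433, 457, 431 and 481 CPM, and ratios of 1.05 [0.902, 1.23] and 1.12 [0.909, 1.39]. In the aged, B-like cells (322 and 301 CPM, ratio 0.935 [0.786, 1.11]) and T, NK or innate lymphoid-like cells (387 and 427 CPM, ratio 1.10 [0.921, 1.32]) likewise had intervals that hold 1, whereas in the young their ratios were 1.98 [1.59, 2.46] and 2.44 [1.89, 3.18].

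**Figure D4:**
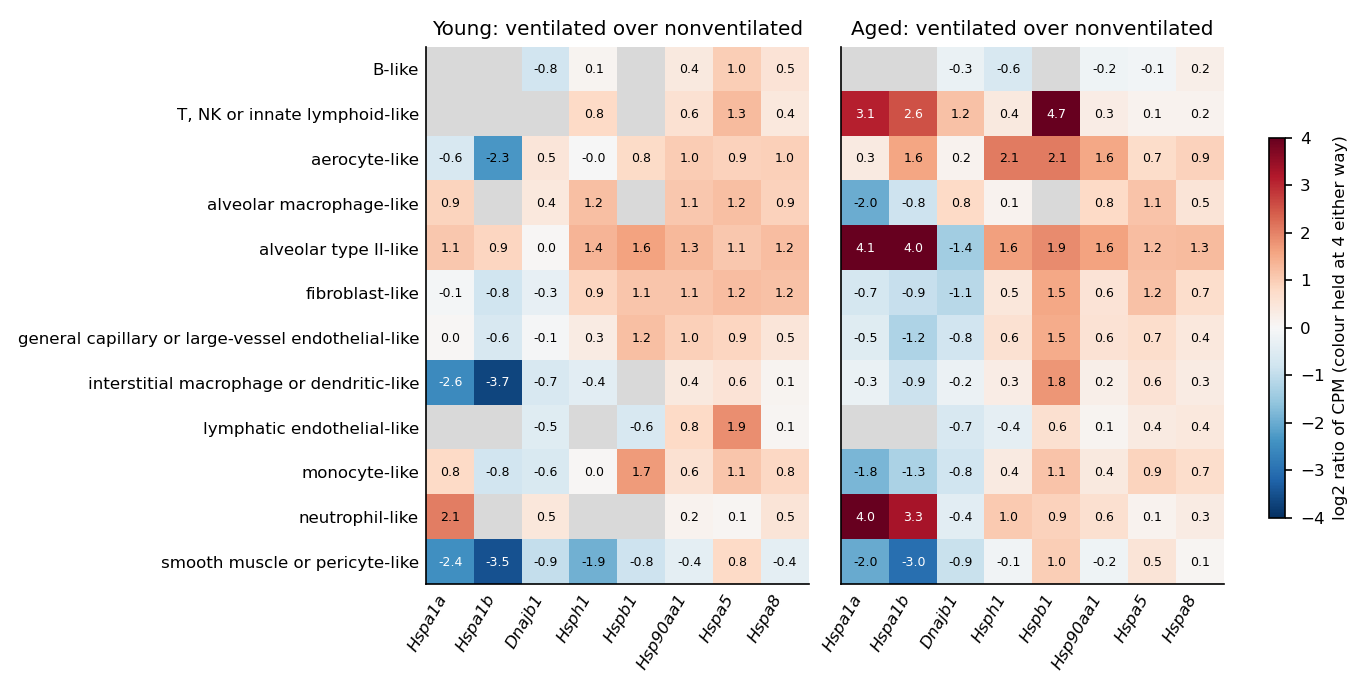
Log2 ratio of CPM, ventilated over nonventilated, for 8 heat shock genes (columns) in 12 cell classes (rows), young on the left and aged on the right, with red for higher and blue for lower in the ventilated library. The 22 of 192 class and gene pairs with under 20 UMIs in both libraries are grey. The *Hspa5* and *Hspa8* columns are mostly red, and the *Hspa1a* and *Hspa1b* columns run from -3.7 to 4.1.

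Shares of cells with a UMI were set at equal depth by thinning each cell to 2000 UMIs, which left out 242 to 447 shallower cells per library. *Hspa5* was then seen in 50.3%, 67.0%, 52.6% and 63.8% of cells (77.6%, 82.5%, 80.8% and 84.7% unthinned). *Hspb1* was seen in 23.1%, 30.2%, 18.3% and 29.4% of cells (38.6%, 47.6%, 32.6% and 43.7% unthinned). Both shares were higher with ventilation at both ages. *Hspa1a* was seen in 10.3%, 8.21%, 10.0% and 6.52% of cells (23.8%, 21.2%, 20.9% and 16.2% unthinned), a much smaller range than that of its CPM. In smooth muscle or pericyte-like cells its thinned shares were 41.2%, 29.3%, 38.7% and 14.1%. B-like cells, which had few of its UMIs, gave 0 of 94, 0 of 29, 3.16% and 0 of 78 cells. The background from free RNA was not measured. For *Hspb1*, monocyte-like cells gave 0.826%, 3.28%, 0.866% and 1.99%, while fibroblast-like cells gave 52.3%, 63.6%, 47.6% and 72.1%.

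The size of the ventilated over nonventilated ratio differed between the ages for 7 of the 8 genes by more than counting error, while differences between single pools were not tested. Of all 4152 genes past the filter, 70.3% differed in this way. These are sums over all retained cells, and the mix of cells differed between the libraries. Neutrophil-like cells held 2.53%, 4.89%, 1.12% and 7.98% of UMIs, and fibroblast-like cells 22.4%, 25.7%, 18.6% and 16.6%. The part of this mix in the differences was not tested. On the log2 scale, with normal approximations of the counting intervals, aged minus young, *Hspa1b* differed by 1.69 [1.50, 1.88], *Hspa1a* by 0.81 [0.67, 0.95] and *Hspb1* by 0.68 [0.61, 0.74]. *Dnajb1* (-0.55 [-0.70, -0.39]), *Hsp90aa1* (-0.42 [-0.47, -0.37]), *Hspa5* (-0.28 [-0.33, -0.23]) and *Hspa8* (-0.23 [-0.27, -0.20]) had a lower ratio in the aged. For *Hsph1* the difference was 0.07 [-0.11, 0.26]. Without the smooth muscle or pericyte-like class, that of *Hspa1b* was 0.93 [0.70, 1.16] and that of *Hspa1a* 0.19 [0.03, 0.35]. Aged and young nonventilated cells differed less. Between them, 0 of the 8 genes were at least 2-fold higher or lower, as were 0.405% and 0.0953% of 4197 genes. The widest gaps were in *Hspa1b* (1.72-fold lower in the aged [1.59, 1.86]), *Hspa1a* (1.71-fold lower [1.61, 1.81]) and *Hspb1* (1.55-fold lower [1.49, 1.60]). Between aged and young ventilated cells, 0 of the 8 were again at least 2-fold higher or lower, against 0.424% and 1.89% of 4011 genes. *Hspa1b* was 1.88-fold higher in the aged [1.68, 2.10], a log2 ratio of 0.91 that became -0.0537 without the 1% of cells highest in the 8 genes, and *Hspb1* was nearly level at 1.03-fold [1.01, 1.06]. These 4 comparisons share libraries pairwise and are not independent.

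Beside the 8 genes, a list of 81 other protein folding genes was followed, of which 47 passed the filter. In the young, 36 were higher and 9 lower with ventilation, with a median log2 ratio of 0.34, and in the aged 33 were higher and 9 lower, with a median of 0.29. The shares of all genes were 41.9% and 44.5%, and 34.3% and 48.5%. At each age, 1 gene of the list past the filter was at least 2-fold higher and 0 lower, where 6.51% and 5.83% of all genes were in the young and 4.23% and 3.00% in the aged. That gene was *Manf*, a secreted endoplasmic reticulum stress protein, at 104, 217, 108 and 227 CPM (log2 ratios of 1.06 and 1.07). The endoplasmic reticulum chaperones, the group of *Hspa5*, were higher in 11 and lower in 1 of 12 at both ages. Among them *Pdia6*, a disulfide isomerase, was at 110.0, 179, 114 and 206 CPM and *Dnajb11*, a cochaperone of BiP, at 48.1, 78.2, 50.4 and 90.3 CPM. Chaperonin genes, which encode the cytosolic ring that folds actin and tubulin and the mitochondrial pair of *Hspd1* and *Hspe1*, were higher in 9 of 10 in the young and 10 of 10 in the aged, with *Cct3* at 65.7, 128, 67.0 and 105 CPM. *Sqstm1*, an autophagy receptor, was at 245, 463, 287 and 360.1 CPM (0.91 and 0.33). Among genes past the filter, *Cryab*, a small heat shock protein of muscle (106, 70.8, 91.1 and 69.0 CPM), and *Dnajb4*, a J-domain protein (99.4, 74.7, 78.4 and 56.9 CPM), had the lowest ratios at both ages. Next came *Herpud1* in the young (-0.23) and *Bag3*, a cochaperone of HSP70, in the aged (-0.27, against 0.32 in the young). Genes under the filter reached 2-fold in both directions. Examples are *Hspa12b* at 41.6, 6.30, 31.0 and 9.70 CPM (-2.71 and -1.67) and *Creld2* at 16.3, 33.3, 16.0 and 39.6 CPM (1.03 and 1.31).

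**Figure D5:**
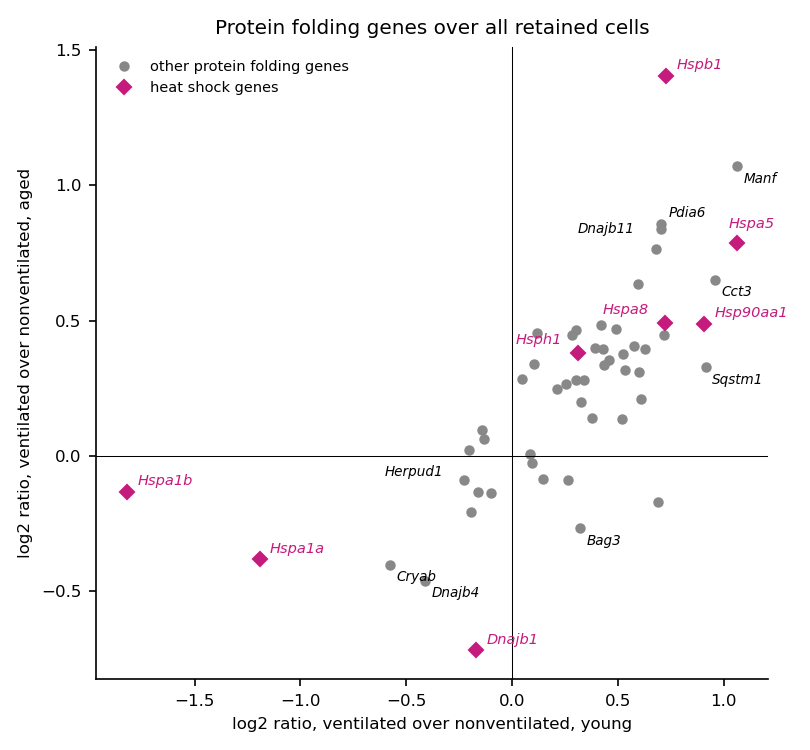
Log2 ratio of CPM, ventilated over nonventilated, over all retained cells in the young (x axis) and the aged (y axis) for the 8 heat shock genes (diamonds) and the other protein folding genes that passed the filter at both ages (circles). *Manf* and *Hspa5* lie at the upper right, *Hspb1* at the top (0.73 and 1.40), *Hspa1b* at the far left (-1.82 and -0.13) and *Dnajb1* at the bottom (-0.17 and -0.72).

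Over 56 sums of a class and library, the gene outside the set with the pattern most like *Hspa1a* was *Gpc6* (Pearson r = 0.69 of log2(CPM + 10) among 4169 genes), followed by *Ppp2r3a* (0.67), *Cacna1c* (0.66), *Dnajb4* (0.66) and *Tpm2* (0.66). Within the set, r with *Hspa1a* was 0.83 for *Hspa1b*, 0.65 for *Hspb1* and 0.18 for *Hspa5*. The genes most like *Hspa5* were *Eif4a1* (0.81), *Mt2* (0.79), *Mt1* (0.78), *Sh3pxd2b* (0.76) and *Slc39a14* (0.69). With *Hspa5*, r was 0.67 for *Hspa8* and 0.02 for *Hspa1b*. The sums share libraries and cell types, so these values are descriptions.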

How the data were processed

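Droplet scRNA-Seq (10x 3′) libraries were made from lung cells of 4 groups, 1 library each. Per the study's methods, the authors aligned reads to mm10 with Cell Ranger 7.0.0 and deposited raw UMI counts for each gene in each barcode, not normalized. CPM, log2 ratios and percentages were computed here from the deposited counts. Kept barcodes had from 200 to 5000 genes, no more than 10% mitochondrial UMIs, and UMIs up to the 93rd percentile of these barcodes (21021), which left 9514 cells. A percentile over all barcodes would have set the limit to 28597 and left 10160 cells. Doublets were limited by the upper bounds alone, and an alternative left out cells with transcripts of 2 lineages.

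Cells were clustered with Seurat 5.3.0 in R 4.3.3 (with Matrix 1.6.5 and SeuratObject 5.2.0) on 2000 variable genes less 5 heat shock or folding genes, with 37 principal components and a resolution of 0.18, or 0.5 as the finer one. Clusters were named from fixed markers and called "-like". Clusters with 930 cells stayed unnamed, and alveolar type I-like, myofibroblast-like and basophil-like cells were not compared because the aged ventilated library held under 20 of each. The monocyte-like class joined a cluster of 79 and 93 ventilated classical monocyte-like cells (0 nonventilated) to a larger one named nonclassical. At the finer resolution, nonventilated cells were also named classical monocyte-like at both ages. Names rebuilt here can differ from those of the study. UMIs were summed per library and class in Python 3.11.15 (numpy 2.4.6, scipy 1.17.1, pandas 2.3.3, matplotlib 3.10.9). Intervals of counts were Poisson, those of shares Clopper-Pearson and those of ratios conditional binomial. A fold was named "at least 2-fold" on the log2 ratio with 1 UMI added, and genes entered the background with a mean of at least 50 CPM and at least 20 UMIs in 1 library. With depth this unequal between classes, intervals are widest in the small classes. On simulated Poisson counts of whole libraries, the 2-fold rule and the ratio interval met their known answers. The planted changes were well past 2-fold and lay in genes of at least 50 CPM. The interval was checked on genes with no planted change. Changes near 2-fold and the small sums of single classes were not simulated. The simulated counts also lack the uneven spread of UMIs over cells, and clustering, class naming and the motif search were not simulated.

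The 8 genes, the gene lists and most comparisons were chosen with earlier results of these data known. The way clusters were merged into classes, the limit of 20 UMIs for high cells and the exclusion of the smooth muscle or pericyte-like class were set after values were seen. Of the folding list, the 3 highest and 3 lowest log2 ratios past the filter per ventilation comparison were named, and the 5 genes most like *Hspa1a* and *Hspa5*. The examples under the filter (*Hspa12b* and *Creld2*) were chosen after their values were seen. Genes named beside the high cells (*Actc1*, *Acta2*, *Des*) were chosen after their values were seen. Promoter sequences came from RefSeq (GRCm38.p6) and gene positions from a GRCm38 annotation. Alternatives changed the cell filters, scaling, weight of cells, depth, composition, fold and cluster settings.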

Additional observations from a re-analysis of the deposited data

Results flagged for a closer look

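A gene in a class was listed if its ventilated over nonventilated ratios lay on opposite sides of 1 at the 2 ages. Both counting intervals also had to leave out 1. Among the 8 genes in the 12 classes, 4 cases met this rule. How often other genes of a class met it was not counted, so these cases cannot be called unusual. Over all retained cells, the ratios of 70.3% of all 4152 genes past the filter differed between the ages by more than counting error. Each age had 1 library per condition, so whether the ages differ beyond the spread between pools was not tested.

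*Hspa1b* in aerocyte-like cells had 102 nonventilated and 15 ventilated UMIs in the young, and 26 and 82 in the aged, which gave log2 ratios of -2.32 in the young and 1.59 in the aged, a difference of 3.91. *Hspa1a* in alveolar macrophage-like cells had 19, 30, 22 and 2 UMIs (0.89 and -1.98), a difference of -2.87. Of its 22 aged nonventilated UMIs, 13 were in 1 cell, and of the 30 young ventilated UMIs 13 were in each of 2 cells. The class had 1 aged nonventilated cell with 20 or more summed *Hspa1a* and *Hspa1b* UMIs and 0 such cells in the other libraries. *Hspa1a* in monocyte-like cells had 49, 95, 259 and 61 UMIs (0.78 and -1.84), a difference of -2.62. Here 6 aged nonventilated cells reached 20 summed *Hspa1a* and *Hspa1b* UMIs, against 0 and 1 cells of the young libraries and 1 aged ventilated cell. At the finer cluster resolution, the difference was -2.10 in classical and -2.27 in nonclassical monocyte-like cells. The young ratio was 2.05 [1.34, 3.18] in the classical cells, but 1.35 [0.685, 2.76] in the nonclassical ones, an interval that holds 1. *Hspb1* in smooth muscle or pericyte-like cells had 2539, 1085, 1217 and 1564 UMIs (-0.83 and 0.97), a difference of 1.80. Without the 1% of cells highest in the 8 genes, *Hspb1* among them, the young log2 ratio turned to 1.21 and the aged one was 1.70. These values depend on that choice of cells.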

How the results depend on the processing

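No paired analysis was possible because each group was 1 pooled library, and for the same reason no library could be left out. Beside 1 gene at least 2-fold higher and 2 lower in the young, a fold of 1.5 gave 4 higher, the mean of per-cell CPM and cells thinned to 1000 UMIs each gave 0 higher and 1 lower, a mitochondrial limit of 5% gave 1 lower, and leaving out the 1% of cells highest in the 8 genes gave 2 higher and 0 lower. Leaving out the smooth muscle or pericyte-like class, chosen after the values were seen, gave 3 higher and 0 lower. At the fold of 1.5, 15.2% of all genes past the filter were higher in the young, and 9.33% higher and 10.9% lower in the aged. Between nonventilated ages 0.929% of genes were lower at that fold, and between ventilated ages 4.19% were higher. Without that class, 6.79% of genes were at least 2-fold higher and 6.18% lower in the young, and 0.5% higher between ventilated ages. For the other settings the shares of all genes are not given. Their counts of the 8 genes thus stand without a background and describe these genes only. The young median of 0.52 became 0.61 with no upper limit on UMIs, 0.44 with the mean of per-cell CPM, 0.62 without the 1% and 0.70 without that class. In the aged, a fold of 1.5 gave 2 higher and 1 lower, and the median of 0.44 became 0.54 with the mean of per-cell CPM and 0.53 with classes weighted alike. *Hspa1a* turned from -0.38 in the aged to 0.28 with the mean of per-cell CPM, 0.15 thinned and 0.083 without the class. Between nonventilated ages, a fold of 1.5 gave 3 lower, the median of -0.15 became -0.0249 without the 1% and 0.033 without the class, and without the class *Hspa1a* turned to 0.0121 and *Hspa1b* to 0.16. Between ventilated ages, 1 gene was higher with a fold of 1.5, a mitochondrial limit of 5%, the mean of per-cell CPM, thinning or without the class, and the median of -0.17 became -0.0145 with the mean of per-cell CPM, -0.0522 thinned, -0.0559 with classes weighted alike and -0.32 without the 1%. There, *Hspb1* turned from 0.05 to -0.0501 with a mitochondrial limit of 5%, -0.0466 thinned, -0.0151 without cells of 2 lineages and -0.0616 without the class, *Hsph1* from -0.14 to 0.27 with the mean of per-cell CPM and 0.0283 thinned, and *Hspa1b* from 0.91 to -0.0537 without the 1%. The 2 classes with *Hspa1a* at least 2-fold higher in the young became 1 with no upper limit on UMIs, with the percentile over all barcodes, without cells under 2000 UMIs, without the 1%, at resolution 0.5 and with the heat shock genes kept for clustering, and 5 with a fold of 1.5. The 3 such classes in the aged became 1 without the 1%, and 2 at resolution 0.5, where the alveolar type II-like class was no longer among them. The cause of these moves was not tested. The 1% of cells were chosen by the levels of the 8 genes, so values without them are not independent of that choice. Median-of-ratios scaling moved all genes by -0.03 to 0.06 (log2). Of the other values recomputed, 124 counts and medians stayed within their limits. Among the remaining values, most of them of single genes and a few of them shares of all genes, 916 stayed, 204 moved and 12 turned.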

Other observations

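Barcodes left out by the cell filter also held these transcripts. In those over the mitochondrial limit (650, 1142, 849 and 822 barcodes in the nonventilated and ventilated young, then the nonventilated and ventilated aged libraries), *Hspa1a* was at 15.7, 38.0, 52.8 and 60.6 CPM, an order unlike that of the retained cells, *Hspb1* at 97.7, 183, 104 and 277 CPM, and *Hspa5* at 305, 349, 269 and 435 CPM. In barcodes over the upper limits on genes or UMIs (544, 593, 671 and 616), *Hspa1a* was at 73.2, 54.9, 77.3 and 56.9 CPM.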
